A study of Mus musculus with 13 samples.

Results

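The genes described here encode the non-collagenous core of the basement membrane: the laminin chains Lama2, Lama4, Lama5, Lamb1, Lamb2 and Lamc1, the nidogens Nid1 and Nid2, and the heparan sulphate proteoglycans perlecan (Hspg2) and agrin (Agrn). They were taken by symbol, and each of the 10 genes was read by 1 probe set, out of 19537 genes with a probe set of a single symbol and 25194 probe sets in all. Their expression was measured on 13 Affymetrix arrays of liver cells from naive C57BL/6 mice aged 6 to 10 weeks, with no other genotype or treatment named. Hepatocytes, Kupffer cells (the resident macrophages of the liver) and liver sinusoidal endothelial cells (LSEC) were analysed fresh after sorting, with 3 arrays each. Hepatic stellate cells (HSC), the vitamin A-storing pericytes of the sinusoid, had been kept in DMEM with 10% FBS, and 2 arrays were made after 1 day, 1 after 7 days and 1 after 14 days. No array of uncultured HSC was analysed here, so every difference between HSC and another population is also one between cultured and fresh cells. Culture on plastic in serum turns HSC into myofibroblast-like cells and serves as a model of their activation in fibrosis. The labels call the arrays of a population biological replicates without naming animals, so the p-values may measure only technical spread between arrays.

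Laminins are secreted as heterotrimers of an alpha, a beta and a gamma chain, and the alpha chain carries the main binding sites for integrins and dystroglycan. The chain encoded by Lamc1 is shared by most laminins, whereas the alpha chains differ between tissues. Lama4 is the alpha chain typical of blood vessels, Lama5 is found in many epithelia and in endothelium, and Lama2 in muscle and peripheral nerve. Nidogens bind the gamma chain and collagen IV and so join both networks, while perlecan and agrin bring heparan sulphate into the membrane and bind growth factors with it. The healthy liver sinusoid has only a sparse, discontinuous matrix in the space of Disse, and a denser basement membrane forms along it in fibrosis.

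RefSeq's promoter table (GRCm38.p6) held 7 of the 10 genes. The 250 bases before the start site are shown for Lamb1 and Nid1, which were higher in 1-day HSC than in every other population, and for Lama2 and Lamb2, the laminin chains with the largest differences between longer and 1-day culture. Each is written 5′ to 3′ on the strand of its gene. The Lamb1 window is chr12:31265043-31265292 (plus strand), that of Nid1 chr13:13437352-13437601 (plus), that of Lama2 chr10:27616943-27617192 (minus) and that of Lamb2 chr9:108479612-108479861 (plus). Capitals mark matches to the motifs searched on both strands, the GC box GGGCGG and the TEAD motif GGAATG.
Lamb1: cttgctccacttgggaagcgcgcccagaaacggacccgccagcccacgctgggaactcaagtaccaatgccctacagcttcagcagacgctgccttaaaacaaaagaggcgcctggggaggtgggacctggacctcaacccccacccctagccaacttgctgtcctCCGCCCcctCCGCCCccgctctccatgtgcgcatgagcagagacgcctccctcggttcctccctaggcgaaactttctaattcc
Nid1: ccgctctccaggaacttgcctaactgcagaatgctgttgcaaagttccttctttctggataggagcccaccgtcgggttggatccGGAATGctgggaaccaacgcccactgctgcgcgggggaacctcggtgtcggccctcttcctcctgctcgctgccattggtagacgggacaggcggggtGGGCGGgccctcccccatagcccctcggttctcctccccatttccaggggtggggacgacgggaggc
Lama2: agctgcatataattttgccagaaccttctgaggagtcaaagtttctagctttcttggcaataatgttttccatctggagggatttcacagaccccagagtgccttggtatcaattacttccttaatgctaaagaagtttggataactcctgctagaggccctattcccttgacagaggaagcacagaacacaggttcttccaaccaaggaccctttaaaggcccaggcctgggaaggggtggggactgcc
Lamb2: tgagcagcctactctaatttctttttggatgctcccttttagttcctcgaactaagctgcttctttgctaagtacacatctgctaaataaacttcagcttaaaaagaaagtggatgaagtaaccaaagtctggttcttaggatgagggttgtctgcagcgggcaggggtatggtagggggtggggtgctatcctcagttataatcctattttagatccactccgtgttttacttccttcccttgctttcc
The Lamb1 window held 2 GC boxes and had a GC content of 62%, and the Nid1 window held 1 GC box and 1 TEAD match at 64.4%. The Lama2 and Lamb2 windows held neither motif and had GC contents of 47.2% and 43.6%, against a median of 52.4% over all 32851 windows of the table. The GC box was present in 32.7% of those windows and the TEAD motif in 12.6%. The AP-1 motif TGANTCA, present in 6.75% of all windows, was found in none of the windows of these 7 genes. These matches describe letters and were not tested as binding sites.

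The arrays carried the markers of their labelled cell type. The summed intensity of 12 hepatocyte markers was 132531 to 136604 on hepatocyte arrays, that of 12 Kupffer cell markers 113883 to 115496 on Kupffer cell arrays, and that of 11 measured stellate cell markers 24110.3 to 27236 on HSC arrays, against at most 4112 on arrays of other populations. The sum of 12 LSEC markers was 83117, 78664 and 60312 on the LSEC arrays, lowest on replicate 3. The 1-day HSC arrays also held hepatocyte markers (20448 and 11419, with Alb at 8855 and 6285) and LSEC markers (13800.2 and 12959), which were at 1375 to 1426 and 2727 to 3132 after 7 and 14 days. Kupffer cell markers summed to 6668 and 8773 on the 1-day HSC arrays and to 4580 and 7280 after 7 and 14 days. Kupffer cell arrays held LSEC markers at 14857 to 17332, of which Cdh5 made up 9141 to 10039.9. Markers of smooth muscle and pericytes summed to 7389, 4766 and 2941 on the LSEC arrays, led by Kcnj8 (3751, 2218 and 1370.2), against 3389 and 3865 on 1-day HSC arrays. Of these 7 markers, 3 were above the pooled median on each LSEC array and 6 on each 1-day HSC array. The 6 neutrophil markers were below the pooled median of all values on every array. In such bulk RNA, fewer cells of a type and less RNA per cell cannot be told apart.

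**Figure D1:**
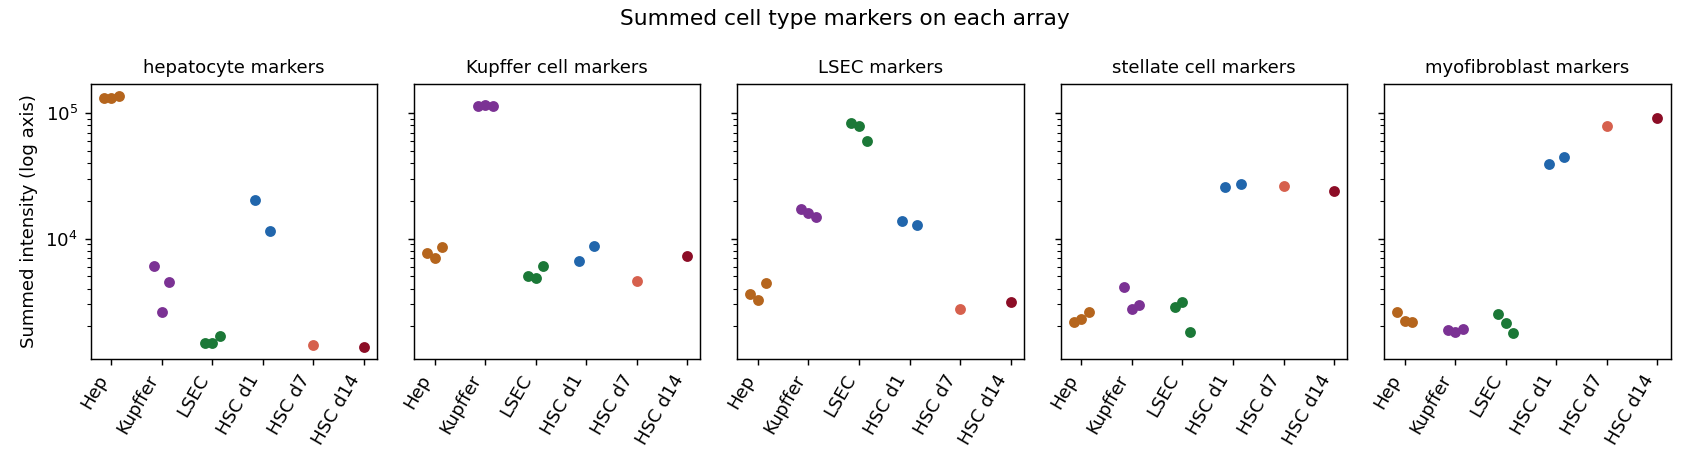
Summed intensity of cell type marker lists on each of the 13 arrays, on a log axis, with 1 point per array and the populations and culture days along the horizontal axis. Each population carries its own markers, and hepatocyte and LSEC markers on HSC arrays are higher at day 1 than at days 7 and 14.

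Among the alpha chains, Lama4 and Lama5 were higher in LSEC than in hepatocytes, Kupffer cells and 1-day HSC, while Lama2 was above the pooled median on HSC arrays alone. Lama4 was read at intensities of 2403, 1690.4 and 1230.4 on the LSEC arrays and at 408 and 394 in 1-day HSC. It was at 110.0, 108 and 90.6 in hepatocytes and 135, 104 and 122 in Kupffer cells, so that no array of another population reached the lowest LSEC array. The LSEC mean of 1774 ± 591 (SD, n = 3) was 4.42-fold that of 1-day HSC, and no fold is given against hepatocytes and Kupffer cells, whose values lay near the low end of the arrays. Differences were tested with limma on log2(intensity + 82.7), adjusted over all genes, and a difference was called where the adjusted p was under 0.05 and its size on the log2 scale was 1 or more. LSEC exceeded 1-day HSC by 1.89 (SE 0.19, adjusted p = 7.4e-06) for Lama4, and 1-day HSC in turn exceeded hepatocytes (log2 difference, hepatocytes minus 1-day HSC, -1.38, adjusted p = 4.5e-05) and Kupffer cells (-1.25, adjusted p = 9.5e-05). With the pooled median as the constant these last differences were -0.93 and -0.86 and no longer called. Hepatocytes and Kupffer cells were not told apart for this chain (-0.13, adjusted p = 0.53). The lowest Lama4 value of LSEC was on replicate 3, the array with the lowest LSEC marker sum.

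Lama5 gave 790.3, 952 and 804 in LSEC, 341 and 357 in 1-day HSC, 257, 229 and 269 in hepatocytes and 243, 226 and 218 in Kupffer cells. The LSEC arrays lay above all others of the populations, without the drop on replicate 3 seen for Lama4. The difference between LSEC and 1-day HSC was 1.11 (SE 0.10, adjusted p = 1.7e-06), a ratio of means of 2.43. The 1-day HSC exceeded hepatocytes (hepatocytes minus 1-day HSC -0.37, adjusted p = 0.0045) and Kupffer cells (-0.47, adjusted p = 0.00086) by less than the log2 difference of 1 required for a call, and hepatocytes and Kupffer cells did not pass the test (0.10, adjusted p = 0.31).

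Lama2 was at or near the low end of its range in the fresh populations, with 97.9, 98.4 and 105 in hepatocytes, 100.4, 92.9 and 94.99 in Kupffer cells and 87.8, 88.9 and 85.4 in LSEC. The 1-day HSC arrays gave 211 and 265, and the 7-day and 14-day arrays 1601 and 1475. Since only 1 of the 11 arrays of the population fit was above the pooled median of 224.5, Lama2 was not tested between the populations in the main fit. Without that filter its difference between LSEC and 1-day HSC was -0.91 (adjusted p = 5.2e-06), short of a call.

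The beta chains had unlike patterns. Lamb1, a beta chain used in many tissues, was at 1584 and 1533 in 1-day HSC and nowhere above 216 in the other populations: 167, 196 and 179.6 in hepatocytes, 149, 162 and 147 in Kupffer cells and 216, 177 and 152 in LSEC. The 1-day HSC mean of 1559 ± 35.6 (SD, n = 2) was 8.58-fold that of LSEC. The log2 difference, LSEC minus 1-day HSC, was -2.64 (SE 0.10, adjusted p = 1.5e-09), and against hepatocytes and Kupffer cells it was -2.64 and -2.80 (adjusted p = 4.7e-10 and 2.1e-10). The fresh populations did not pass the test against each other for Lamb1 (largest difference 0.16 in size, adjusted p = 0.13 between hepatocytes and Kupffer cells). Because the filter asks for 2 arrays above the pooled median, Lamb1 passed it only through the 1-day HSC arrays.

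Lamb2, the beta chain of the neuromuscular synapse, the kidney filter and vessel walls, was spread over all populations. The LSEC arrays gave 789.9, 802 and 780.3, the 1-day HSC arrays 495 and 500.1, the Kupffer cell arrays 369.9, 448 and 347 and the hepatocyte arrays 296, 262 and 283, and the ranges of the populations did not overlap. LSEC exceeded hepatocytes by a called difference (hepatocytes minus LSEC -1.27, SE 0.09, adjusted p = 5e-08). The steps between neighbours in this order were smaller than a call asks: 0.59 between LSEC and 1-day HSC (adjusted p = 0.00031), -0.31 for Kupffer cells minus 1-day HSC (adjusted p = 0.013) and -0.37 for hepatocytes minus Kupffer cells (adjusted p = 0.0019).

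Lamc1 and Nid1, the gamma chain and a nidogen that binds it, shared an order across the populations in which Kupffer cells were lowest. Lamc1 was at 2401 and 2713 in 1-day HSC, 2185, 2266 and 2262 in LSEC, 1213, 1193 and 948 in hepatocytes and 186, 175 and 184 in Kupffer cells. LSEC and 1-day HSC did not pass the test (LSEC minus 1-day HSC -0.18, 95% interval -0.41 to 0.04, adjusted p = 0.17), which leaves differences within that interval possible. Hepatocytes exceeded Kupffer cells by 2.17 (SE 0.09, adjusted p = 4.6e-10) and were -0.96 from LSEC (adjusted p = 1.6e-06), just under the size required for a call. Leaving out hepatocyte replicate 1 or 2 brought this last difference to -1.02 or -1.01, past the threshold.

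Nid1 was at 6646 and 5955 in 1-day HSC, 2968, 2937 and 2858 in LSEC, 1525, 1332 and 953 in hepatocytes and 189, 153 and 146 in Kupffer cells. The 4 groups did not overlap, and each step in this order was called. LSEC minus 1-day HSC was -1.09 (SE 0.15, adjusted p = 0.0001), hepatocytes minus LSEC -1.17 (SE 0.14, adjusted p = 7.6e-06) and hepatocytes minus Kupffer cells 2.44 (SE 0.14, adjusted p = 5.8e-09). Without hepatocyte replicate 3 the step from hepatocytes to LSEC was -0.99 and no longer called. In hepatocytes both Lamc1 and Nid1 were lowest on replicate 3, the hepatocyte array with the highest sums of LSEC and stellate cell markers (4430.2 and 2583). Agrn was also lowest on that hepatocyte array (453), and the part of these markers in the members' values was not tested. Over the 13 arrays, which share cell populations, Lamc1 and Nid1 had a Pearson correlation of 0.98 on the log2 scale.

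Nid2 did not follow Nid1. It was at 589, 719 and 612 in Kupffer cells, 811, 559 and 351 in LSEC, 423 and 398 in 1-day HSC and 188, 206 and 166 in hepatocytes. The LSEC arrays spread over the range of the Kupffer cell and the 1-day HSC arrays, with the lowest value on replicate 3. Hepatocytes were lower than Kupffer cells (hepatocytes minus Kupffer cells -1.42, SE 0.20, adjusted p = 3.1e-05) and LSEC (-1.22, SE 0.20, adjusted p = 0.00012), the latter being -0.97 without LSEC replicate 1. Kupffer cells and LSEC (0.20, adjusted p = 0.41) and LSEC and 1-day HSC (0.35, 95% interval -0.12 to 0.83, adjusted p = 0.21) did not pass the test.

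Perlecan (Hspg2), the proteoglycan of vessel walls and cartilage, was high in LSEC and HSC and low in the other populations. The LSEC arrays gave 3874, 3837 and 2597, the 1-day HSC arrays 1859 and 1578, the hepatocyte arrays 281, 268 and 309 and the Kupffer cell arrays 313, 279 and 292. The LSEC mean of 3436 ± 727 (SD, n = 3) was 12.0-fold that of hepatocytes (hepatocytes minus LSEC -3.23, SE 0.13, adjusted p = 5.1e-10). LSEC exceeded 1-day HSC by 0.95 (SE 0.15, 95% interval 0.62 to 1.28, adjusted p = 0.00027), under the size of a call, and by 1.13 when LSEC replicate 3 was left out, a called difference. Hepatocytes and Kupffer cells were not told apart (-0.04, adjusted p = 0.83).

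Agrin (Agrn), known as the organiser of the neuromuscular junction, was highest in LSEC and hepatocytes. It was at 984, 1053 and 572 in LSEC, 739, 627 and 453 in hepatocytes, 389, 348 and 322 in Kupffer cells and 308 and 378 in 1-day HSC. LSEC and hepatocyte arrays overlapped, and so did those of Kupffer cells and 1-day HSC. LSEC exceeded 1-day HSC by 1.13 (SE 0.22, adjusted p = 0.0012) and Kupffer cells (Kupffer cells minus LSEC -1.09, SE 0.20, adjusted p = 0.00038). The first of these was 0.98 without LSEC replicate 2, and the second -0.99 or -0.94 without LSEC replicate 1 or 2, and neither was then called. LSEC and hepatocytes did not pass the test (-0.45, adjusted p = 0.061), nor did Kupffer cells and 1-day HSC (0.04, adjusted p = 0.9).

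**Figure D2:**
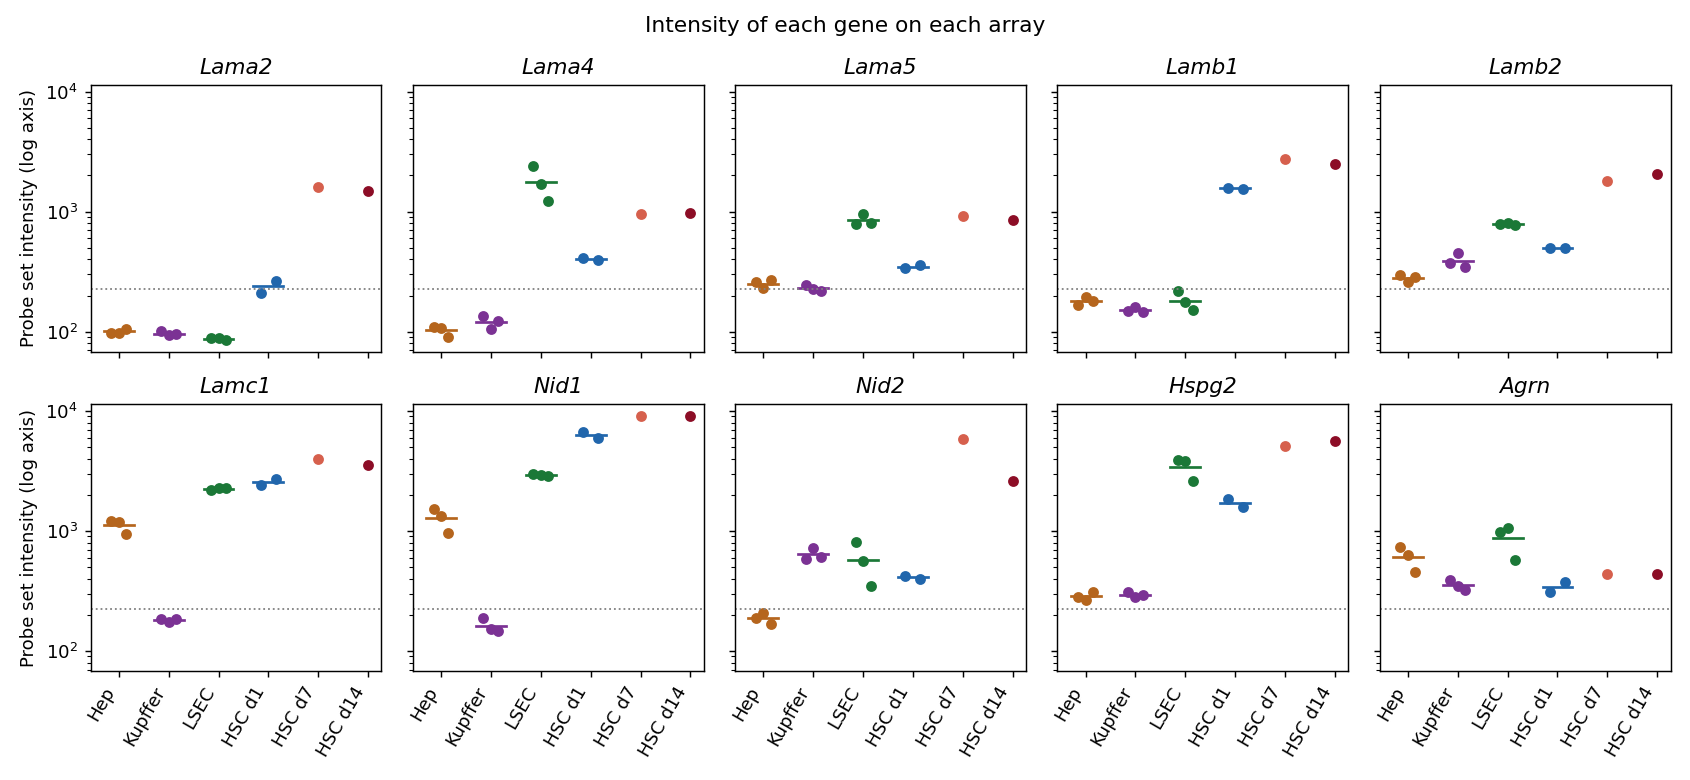
Intensity of the 10 genes on each array, on a log axis, with 1 panel per gene, 1 point per array and a bar at the mean of each group with replicates; the dotted line is the pooled median of all values. Lamb1 stands out on HSC arrays alone, Lama4 and Hspg2 on LSEC and HSC arrays, and Lama2 on the 7-day and 14-day arrays. Heights are not comparable between panels, since each probe set has its own response.

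Set against all genes, the members called in LSEC and HSC were these. In LSEC, 2 of the 9 members tested, Lama4 and Lama5, were higher than in each other population, a pattern that 2.35% of the 12082 genes of the fit had. In 1-day HSC it was Lamb1 and Nid1 (2.58% of all genes), and Lamc1 and Nid1 were lower in Kupffer cells than in each other population (2.28% of all genes). No member was highest by this rule in hepatocytes (6.8% of all genes) or in Kupffer cells (6.53%). Between pairs of populations, LSEC had 6 members above hepatocytes (background 12.5%) and none below (10%), and 6 above Kupffer cells (10.3%) and none below (9.55%). The 1-day HSC had 5 members above hepatocytes (12.2%) and none below (10.2%), and 5 above Kupffer cells (12.9%) and none below (11.7%). Of hepatocytes against Kupffer cells 3 members were called, Lamc1 and Nid1 higher in hepatocytes (12% of all genes) and Nid2 higher in Kupffer cells (13.7%). These counts are a description, since Lamb1 could be tested only because of its level in HSC and Lama2 was not tested.

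LSEC and HSC, which lie against each other in the sinusoid wall, differed in which members were high. Against 1-day HSC, Lama4, Lama5 and Agrn were higher in LSEC and Lamb1 and Nid1 higher in HSC, that is 5 of 9 members where 10.8% of all genes were called (5.24% higher in LSEC and 5.6% higher in HSC). The median log2 difference over the 9 members was 0.59 and over all genes 0.03. The LSEC marker sum on the 1-day HSC arrays (13800.2 and 12959) and the smooth muscle and pericyte marker sum on the LSEC arrays (2941 to 7389) stand beside these differences. Of 6 smooth muscle and pericyte markers tested, Kcnj8 was called higher in LSEC and Rgs5 higher in 1-day HSC. Their median log2 difference, LSEC minus 1-day HSC, was -0.38. Large-vessel endothelial markers summed to 11438 to 11608 on the LSEC arrays. They summed to 5192 and 5795 in 1-day HSC and to 1128 to 1349 in hepatocytes and Kupffer cells. Of 7 tested, 4 (Cd34, Edn1, Sox17 and Efnb2) were higher in LSEC than in each other population, where 2.35% of all genes were. Rspo3 went the other way, being higher in 1-day HSC than in each other population. It was the highest of these markers on the 1-day HSC arrays, at 1976.5 and 3177. The part of these markers in the members' differences was not tested. Lamb1 was at 216, 177 and 152 on the LSEC arrays on which 11 stellate cell markers summed to 2870.3, 3124 and 1807.

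Against HSC kept for 7 and 14 days, merged as 1 group of 2 arrays, the comparison differed in its members. Lama2, Lamb1, Lamb2, Nid1 and Nid2 were called higher in long-cultured HSC (8.67% of all genes) and no member higher in LSEC (6.82%), with a median over 10 members of -0.96 against 0.08 over all genes. Lama2 and Lamb1 were above the pooled median on HSC arrays alone and passed the filter only through them, so the count is a description. Lamb1 had the largest difference (LSEC minus long-cultured HSC -3.35, SE 0.10, adjusted p = 3.7e-11), followed by Lama2 (-3.25, SE 0.09, adjusted p = 1.1e-11) and Nid2 (-2.66, SE 0.30, adjusted p = 7.3e-06). Lama5 was not told apart (-0.05, 95% interval -0.26 to 0.15, adjusted p = 0.67). Lama4 and Agrn exceeded the long-cultured HSC in LSEC by 0.78 (adjusted p = 0.0032) and 0.83 (adjusted p = 0.0051), short of a call, and by 1.01 and 1.08 without LSEC replicate 3, both then called. Both comparisons use the same LSEC arrays, so their values stand side by side without a test of the change between them.

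**Figure D3:**
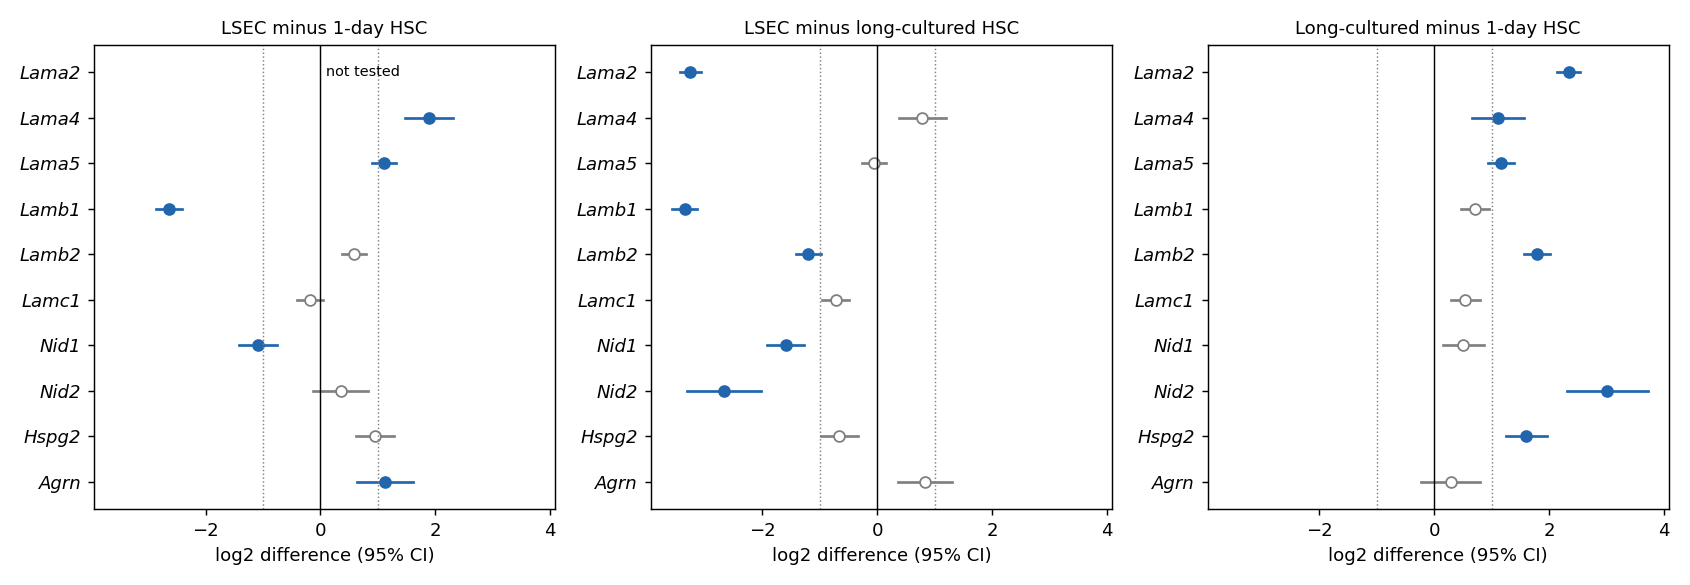
Log2 differences of the 10 genes with 95% intervals, for LSEC minus 1-day HSC, LSEC minus long-cultured HSC and long-cultured minus 1-day HSC, where filled points are called differences and dotted lines mark a log2 difference of 1. Lamb1 lies far to the HSC side in both comparisons with LSEC, and 6 members lie past the line in culture, led by Nid2 and Lama2.

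From 1 day to longer culture, 6 of the 10 members rose and none fell, where 5.52% of all 12368 genes of this fit rose and 4.27% fell. The spread in this fit came from all groups, the fresh cells included, and the 7-day and 14-day arrays were treated as replicates of long culture. Nid2 rose most, from 423 and 398 on the first day to 5827 and 2603 after 7 and 14 days. The ratio of means was 10.3 and the log2 difference 3.01 (SE 0.33, adjusted p = 1.4e-05). It was 2.24-fold higher at day 7 than at day 14, while the late arrays of the other members differed by at most 1.13-fold, and with 1 array per day this difference has no replicate check. Lama2 rose from 211 and 265 to 1601 and 1475 (2.34, SE 0.09, adjusted p = 2.9e-09), a ratio of 6.46. Lamb2 rose from 495 and 500.1 to 1812 and 2038 (1.79, SE 0.11, adjusted p = 8.9e-08), and Hspg2 from 1859 and 1578 to 5114 and 5667 (1.61, SE 0.16, adjusted p = 8.7e-06).

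The remaining members changed less or not past the threshold. Lama5 rose from 341 and 357 to 914 and 848 (1.16, SE 0.10, adjusted p = 3.2e-06), and Lama4 from 408 and 394 to 949 and 972 (1.11, SE 0.21, adjusted p = 0.00087). With the pooled median as the constant added before logs these were 0.95 and 0.92 and not called. Lamb1 went from 1584 and 1533 to 2752 and 2470.0 (0.71, adjusted p = 0.00027), Lamc1 from 2401 and 2713 to 3989 and 3531 (0.54, adjusted p = 0.0023) and Nid1 from 6646 and 5955 to 8999 and 8984 (0.51, adjusted p = 0.022), all with the late arrays above both day 1 arrays but under a log2 difference of 1. Agrn stood at 308 and 378 on day 1 and 434 and 439 later (0.29, 95% interval -0.22 to 0.81, adjusted p = 0.36). The median difference over the 10 members was 1.13, against -0.04 over all genes, and Lama2 was read above the pooled median mainly through the late arrays. Over the same arrays 6 of 10 myofibroblast markers rose, their sum going from 39477 and 45127 to 78954 and 90726. Of the LSEC markers 9 of 12 fell, and of the hepatocyte markers 8 of 12. Kupffer cell markers summed to 6668 and 8773 on day 1 and 4580 and 7280 later. The part of all these markers in the members' values was not tested. Portal fibroblast markers summed to 3557 and 3973 on day 1 and 11917 and 16793 later, with 2 of 8 rising (Thy1 and Fbln2) and Dpt falling. Of these sums Fbln2 alone held 1401 and 1480 on day 1 and 8432 and 12646 later. The median log2 difference over this list was 0.05, against -0.04 over all genes. Smooth muscle and pericyte markers went from 3389 and 3865 to 6746 and 7330.5. Of these, 3 of 7 rose (Myh11, Mcam and Lmod1) and Rgs5 fell. Mesothelial markers went from 1024 and 1063 to 1883 and 2776, with 2 of 4 tested rising (Upk3b and Lrrn4). Upk3b and Lrrn4 were above the pooled median on the late arrays alone. They passed the filter only through the group where they are high, so their count is a description. Without the late arrays, 9 of 10 myofibroblast, 6 of 7 smooth muscle and pericyte and 7 of 8 portal fibroblast markers passed the filter. The counts of these lists are therefore a description too. The part of these lists in the members' values was likewise not tested.

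The partners of these proteins were read from lists of related genes, whose counts in culture stand against the 5.52% of all genes that rose. Of the other laminin chains, 2 of 5 could be tested and neither was called in culture, Lama1 going from 252 and 318 to 635 and 579 (0.91, adjusted p = 2.3e-05). Among the collagens of basement membranes 1 of 6 tested rose, Col4a5 from 189 and 181 to 529.9 and 663. Col4a5 was above the pooled median on the 7-day and 14-day arrays alone and so passed the filter only through the group where it is high, and it was not tested with either late day alone. The main collagen IV chains Col4a1 (0.82, adjusted p = 0.00058) and Col4a2 (0.64, adjusted p = 0.0031) were under the size of a call. Of 11 other basement membrane proteins tested 2 rose, the elastic fibre and basement membrane protein fibulin-2 (Fbln2, 2.77, SE 0.17, adjusted p = 1.2e-07), from 1401 and 1480.0 to 8432 and 12646, and nephronectin (Npnt, 1.15, adjusted p = 2.3e-05). Hemicentin-1 (Hmcn1, 1.06, adjusted p = 0.17) and netrin-4 (Ntn4, 0.79, adjusted p = 0.0013) were not called. Hmcn1 was read by several probe sets, and the main fit tested only that of highest mean. This probe set was at 783 and 892 on day 1, 2925 at day 7 and 1131 at day 14. Fbln2 is itself on the list of portal fibroblast markers.

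Receptors for laminin and agrin changed in part. Of 11 tested, 4 rose in culture, beside 5.52% of all genes: the collagen and laminin integrin chains Itga2 (1.52, SE 0.33, adjusted p = 0.0024) and Itga1 (1.36, SE 0.30, adjusted p = 0.0027), the laminin receptor Bcam (1.07, SE 0.21, adjusted p = 0.0013) and Itga3 (1.06, SE 0.24, adjusted p = 0.0034). Itga2 was at 445 and 427 on day 1, 2271 at day 7 and 857 at day 14, and 2 of the receptors were called with day 14 alone. Dystroglycan (Dag1) went from 1558 and 1353 to 3119 and 2668 (0.95, adjusted p = 1.6e-05), and the laminin integrin chain Itga6 from 341 and 271 to 487 and 709 (0.80, adjusted p = 0.0024), neither called. None of 5 tested enzymes that glycosylate dystroglycan was called, where 5.52% of all genes rose and 4.27% fell, so this count says little about them. The largest difference was that of Pomt2 (-0.94, adjusted p = 6.5e-05).

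Cell surface heparan sulphate proteoglycans, which share their sugar chains with perlecan and agrin, had 5 of 8 members rising, beside 5.52% of all genes, and a median of 1.54. Syndecan-2 (Sdc2) went from 541 and 495 to 2284 and 2235 (1.96, SE 0.19, adjusted p = 6e-06), and the glypican Gpc6 from 534 and 465 to 2034 and 2305 (1.95, SE 0.10, adjusted p = 3.6e-08). Gpc4 (1.79, adjusted p = 1e-07) and Gpc3 (1.67, adjusted p = 2.1e-07) rose as well, while Sdc1 (0.80) and Gpc1 (0.58) were not called. Of 13 enzymes that build or edit heparan sulphate 2 rose, the sulfotransferase Hs6st2, from 81.4 and 117 to 1188 and 859, and the endosulfatase Sulf1, from 467 and 454 to 2689.9 and 2851 (2.39, SE 0.08, adjusted p = 8.9e-10). Hs6st2, like Col4a5, passed the filter only through the 7-day and 14-day arrays. Sulf2 (0.98, adjusted p = 0.001) and the chain polymerase Ext1 (0.99, adjusted p = 0.00067) fell just short of a call. No gene of these 7 lists was called lower in culture, where 4.27% of all genes were.

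**Figure D4:**
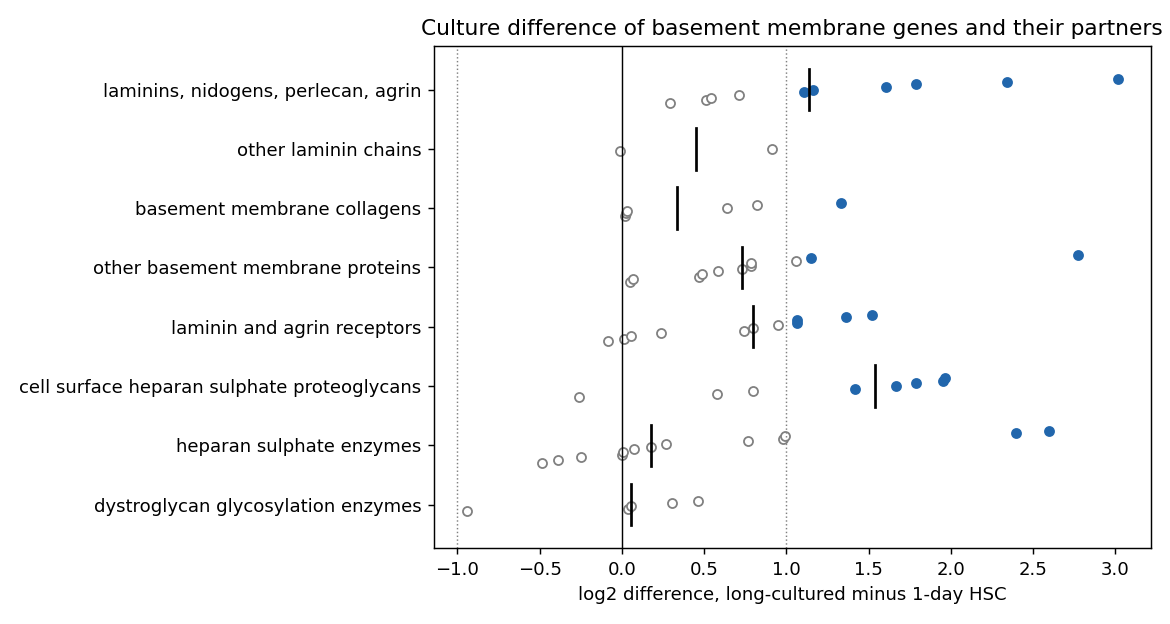
Log2 difference between long-cultured and 1-day HSC for each tested gene of the members and of the 7 partner lists, 1 row of points per list, with filled points for called differences and a vertical bar at the median of each list. Surface heparan sulphate proteoglycans and the members have the highest medians (1.54 and 1.13), and single genes such as Fbln2, Hs6st2 and Sulf1 stand apart within theirs.

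For the members with the clearest patterns, the genes most like them over the 13 arrays were found by Pearson correlation of log2 values among all genes of the fit, given as a description since arrays share populations. Lamb1 was closest to smooth muscle actin (Acta2, r = 0.9972), Lhfp (0.9971) and Kirrel (0.9967). Nid1 was closest to tropomyosin Tpm1 (0.9963), Parva (0.9940) and Mmgt1 (0.9904), and Lamc1 to Phldb2 (0.9943). Lama2 was closest to Gabra3 (0.9983), Svep1 (0.9975) and lumican (Lum, 0.9966), while Lama4 was closest to Garre1 (0.9880), Ttll7 (0.9877) and Ecscr (0.9872). Nid2 was closest to Pclaf (0.9738), and Agrn, whose best match was Card10 (0.9537), had the weakest best match of the 10 members. Between members, Lama4 and Lama5 correlated at 0.95 and Lama5 and Hspg2 at 0.94, while Agrn and Lamb1 were at -0.37.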

How the data were processed

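Affymetrix arrays were hybridised with biotin-labelled cRNA of hepatocytes, Kupffer cells, LSEC and cultured HSC. The deposited value of a probe set is a linear intensity (10.6 to 28854, array medians 216.5 to 232.9). Expression Console of Affymetrix and MAS5 5.0 are named in the submitters' processing notes, with no step given for either. Background correction, normalization and build are not given in the sources used here, so how probe sets were summarised is uncertain. No further normalization was applied. The number of arrays limits the precision.

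Probe sets with a single gene symbol (21181, against 1379 with several and 2634 with none) were used, and 21097 of them matched RefSeq by Entrez identifier. The probe set of highest mean stood for its gene. Genes above the pooled median (224.5) in at least 2 arrays were fitted as log2(intensity + 82.7), the constant being the pooled 20th percentile, with lmFit and eBayes of limma 3.58.1 in R 4.3.3, two-sided, with Benjamini-Hochberg adjustment over all genes of a contrast. Such a constant makes log2 differences of dim probe sets smaller than the true fold. The population fit used 11 arrays, 12082 genes and 7 residual degrees of freedom, and the culture fit 13 arrays, 12368 genes and 8. A call needed an adjusted p under 0.05 and a log2 difference of at least 1. Groups and replicate numbers came from sample titles, and the code was tested on simulated data.

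All 10 genes were named whatever their result. From each partner list up to 4 called and 2 uncalled genes were named by size of difference, and for likeness up to 3 genes per member. The members and lists were chosen with earlier results of these data known. Alternatives were the constant added, the filter, quantile normalization, the choice of probe set, each late day alone, HSC arrays alone, a replicate block and each replicate left out. The labels do not say whether replicate numbers pair the samples, and the main fits treated them as unpaired.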

Additional observations from a re-analysis of the deposited data

How the results depend on the processing

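Across 23 alternatives, 1478 refitted member differences gave 1447 with the same direction and side of the threshold, 14 that lost a call, 9 that gained one and 8 that changed sign. The changes of sign were all in differences of at most 0.20 that were called in neither fit. Lamb1 in hepatocytes minus LSEC, 0.0012 in the main setting, was -0.00052 with the pooled median as constant, -0.087 with quantile normalization, -0.040 without hepatocyte replicate 2, -0.0074 without LSEC replicate 2 and -0.082 without LSEC replicate 3, with leave-one-out values from -0.082 to 0.093. Agrn in Kupffer cells minus 1-day HSC, 0.036, was -0.022 without Kupffer cell replicate 1 and -0.083 without 1-day HSC replicate 1 (range to 0.16), and Nid2 in Kupffer cells minus LSEC, 0.20, was -0.072 without LSEC replicate 3 (range to 0.45). With the pooled median as the constant, members higher in LSEC than in each other population numbered 1 in place of 2 (Lama5 was 0.90 above 1-day HSC), members called between LSEC and 1-day HSC 3 in place of 5 (Lama5 0.90 and Agrn 0.92), and members rising in culture 4 in place of 6; the larger constant shrinks all log2 differences. Leaving out each replicate gave 1 to 2 members higher in 1-day HSC, 1 without either HSC replicate because Lamb1 then no longer passed the filter of 2 arrays. It gave 2 to 3 members higher in LSEC, 4 to 6 called between LSEC and 1-day HSC, and 5 to 7 called between LSEC and long-cultured HSC, and 6 in culture throughout. Among partner lists in culture, collagens numbered 0 with the pooled median or either late day alone and 2 without 1-day HSC replicate 2 (main setting 1). Receptors numbered 2 with the pooled median or day 14 alone (4), other basement membrane proteins 1 with the pooled median (2), and heparan sulphate enzymes 4 with a constant of 1 or without 1-day HSC replicate 1 and 1 with day 7 alone (2). With a constant of 1, or without 1-day HSC replicate 2, 1 of the other laminin chains rose (0). With a constant of 1, 1 member was lower in hepatocytes than in each other population (0). Over all genes, 77 were lower in LSEC with a constant of 1 and 31 with the pooled median (49 in the main setting), 58 and 20 lower in 1-day HSC (34), and 793 and 324 lower in long culture (528). With the pooled median 212 were lower in hepatocytes (328) and 182 in Kupffer cells (275). Higher in 1-day HSC were 206 and 168 genes without its replicate 1 or 2 (312). With the replicate number as a block, 0 of 54 member differences changed their call, and 5 members were called between LSEC and 1-day HSC as without it. Arrays of the same number had deviations correlated at -0.1108 to 0.1106, and 2 of 11 arrays correlated best with their own number. Deviations from means of 2 or 3 arrays depend on each other. These values therefore cannot tell whether samples of the same number share an animal.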

Other observations

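The partner genes also differed between LSEC and 1-day HSC. Of 11 receptors for laminin and agrin tested, 3 were higher in LSEC, where 5.24% of all genes were. The laminin receptor Bcam was at 1652, 2175 and 2555 on the LSEC arrays and at 247 and 225 in 1-day HSC (log2 difference 2.77, SE 0.16, adjusted p = 5.9e-08 in limma), with hepatocytes at 290.4, 277 and 409 and Kupffer cells at 252, 246 and 243. The integrin chain Itga6 was at 1316, 1347 and 1296 in LSEC and 341 and 271 in 1-day HSC (1.86, SE 0.13, adjusted p = 3.9e-07), and Itga3 was higher by 1.22 (SE 0.20, adjusted p = 0.00033). On LSEC replicate 3, the array with the lowest LSEC marker sum, Bcam was highest of the LSEC arrays.

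Some heparan sulphate genes were lower in LSEC than in 1-day HSC, unlike Agrn. Of 8 surface proteoglycans, Sdc2 (-2.18, SE 0.18, adjusted p = 1.1e-06), Gpc4 (-1.76, SE 0.10, adjusted p = 5e-08) and Gpc6 (-1.30, SE 0.09, adjusted p = 3.4e-07) were lower in LSEC and none higher, where 5.6% of all genes were lower. Sdc2 was at 43.2, 51.8 and 54.8 in LSEC, below every array of the other populations. Of 12 enzymes tested, Extl3 (-2.03, SE 0.14, adjusted p = 1.9e-07), Sulf1 (-1.42, SE 0.08, adjusted p = 2.2e-08) and Ext1 (-1.36, SE 0.17, adjusted p = 3.2e-05) were lower in LSEC. Gpc6 and Sulf1 were higher in 1-day HSC than in each other population, and the 1-day HSC arrays alone were enough for them to pass the filter. The counts are therefore a description. Among the collagens none of 5 tested was called, where 10.8% of all genes were, so this count says little about them. Col4a1 was at 1714, 1828 and 1491 in LSEC and 1535 and 2097 in 1-day HSC (-0.10, adjusted p = 0.59).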
